A study of Homo sapiens with 12 samples.

Results

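Keratins build the intermediate filaments of epithelial cells, and their messenger RNAs were followed here with 14 probe sets of 10 genes: KRT1, KRT4, KRT5, KRT8, KRT10, KRT13, KRT14, KRT15, KRT18 and KRT19. These are the probe sets whose annotation names only 1 of those genes, out of 54675 on the array and 54613 tested after array controls were left out, and 10 of 19775 genes named alone by a probe set. The genes were selected on measured values: KRT1 and KRT5 were higher in MKN74 cells with G-quadruplex oligonucleotides, so the G4 values in MKN74 are described below without a test. Of the 14 probe sets, 4 measure simple-epithelial keratins (3 genes) and 10 measure stratified-epithelial keratins (7 genes).

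The arrays hold 3 human cancer cell lines, MKN74 (gastric), HBC4 (breast) and PC-3 (prostate), each with 4 treatments and 1 Affymetrix array per line and treatment, 12 in all. The G4 class of a line is 1 array with the RNA oligonucleotide (uuaggg)4, a telomeric-repeat sequence, and 1 array with the DNA aptamer AS1411; both form G-quadruplexes, four-stranded stacks of guanines. The control class is 1 array with the RNA oligonucleotide (uuaccc)4, in which the guanines are replaced, and 1 array with the transfection reagent alone. In every group 300000 cells were reverse-transfected with Lipofectamine RNAiMAX, at about 100 pmol of oligonucleotide per well where there was one, grown as a 3D culture in low-adhesion plates, and harvested at 72 hours. AS1411 has no DNA control oligonucleotide among these arrays, and nothing in the labels says that arrays of a line came from separate cultures beyond the treatment, so p-values measure only the spread between these arrays. Values were taken as log2 expression, centred so that each probe set has a median of 0 over the 12 arrays. They show differences between arrays but no level, no detection and no order between genes, and a probe set at its background cannot be recognised.

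Keratin filaments are obligate heteropolymers of a type I and a type II chain. KRT8 (type II) pairs with KRT18 and KRT19 (type I) in simple epithelia, and KRT5 (type II) pairs with KRT14 or KRT15 (type I) in the basal layer of stratified epithelia. Above that layer, the epidermis uses KRT1 with KRT10, and moist mucosae such as the oesophagus use KRT4 with KRT13.

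Promoter sequence was at hand for 4 of the 10 genes (KRT4, KRT5, KRT8 and KRT10), from RefSeq on GRCh38.p14, as 250 bases before to 50 bases after the annotated start. The promoters of KRT5 and KRT10 are shown because MKN74 stood at opposite ends for this type II and this type I chain. KRT5 was highest and KRT10 lowest in MKN74. Both genes lie on the minus strand, KRT5 at chr12:52520345-52520644 and KRT10 at chr17:40822565-40822864. Capitals mark TATAAA and ATAAAA, searched on both strands; the motifs overlap where TATAAAA occurs.
KRT5: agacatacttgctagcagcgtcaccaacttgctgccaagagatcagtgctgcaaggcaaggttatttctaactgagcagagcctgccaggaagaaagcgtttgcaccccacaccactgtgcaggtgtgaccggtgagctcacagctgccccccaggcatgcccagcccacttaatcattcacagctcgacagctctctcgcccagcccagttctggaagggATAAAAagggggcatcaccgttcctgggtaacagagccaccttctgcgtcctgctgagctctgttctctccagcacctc
KRT10: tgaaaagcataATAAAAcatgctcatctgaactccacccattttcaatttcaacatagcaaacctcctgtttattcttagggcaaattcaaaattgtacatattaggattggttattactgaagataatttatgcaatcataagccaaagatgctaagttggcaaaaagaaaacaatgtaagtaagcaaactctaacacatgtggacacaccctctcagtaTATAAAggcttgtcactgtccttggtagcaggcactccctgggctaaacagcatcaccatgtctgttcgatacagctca
The single capitalised match in KRT5 begins at position -29 from the annotated start. TATAAA is held by 11.5% and ATAAAA by 16.0% of 35116 promoters of the same length. These motifs, and those that follow, were picked after the sequences and values had been seen, so a match is a description only. The telomeric repeat TTAGGG, held by 9.05% of promoters, occurs 1 time in the KRT10 window. GGGG, held by 89.6%, occurs 2 times on the shown strand of KRT5 and 4 times on the other, overlaps counted, and was not found in the KRT10 window.

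KRT8, KRT18 and KRT19 on 201650_at were highest in MKN74, and the KRT8 and KRT18 pair was lowest in PC-3. KRT8, the type II chain of simple epithelia, had values of 0.77 with (uuaggg)4, 0.87 with AS1411, 0.96 with (uuaccc)4 and 0.97 with reagent alone in MKN74. In HBC4 they were 0.036, -0.036, -0.20 and 0.096 in the same order of treatments, and in PC-3 -2.25, -2.31, -2.21 and -2.29. The 3 lines did not overlap, and the 4 arrays of each line lay closer to each other than to the next line. KRT8 was 3.16 log2 units higher in MKN74 than in PC-3 (SE 0.080, 8.92-fold, adjusted p = 1.78e-11, limma) and 0.92 higher in MKN74 than in HBC4 (1.89-fold, adjusted p = 1.28e-06). In HBC4 it was 2.24 higher than in PC-3 (4.72-fold, adjusted p = 4.14e-10). Adjusted p-values are from limma throughout, with Benjamini-Hochberg adjustment over all 54613 probe sets and a threshold of 0.05. In bulk RNA, fewer cells that express a keratin and less keratin RNA per cell cannot be told apart.

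KRT18, the main type I partner of KRT8, kept the same order of lines with smaller steps. Its values were 0.58, 0.56, 0.67 and 0.64 in MKN74 with (uuaggg)4, AS1411, (uuaccc)4 and reagent alone, 0.048, -0.059, -0.048 and 0.089 in HBC4, and -0.95, -0.97, -1.22 and -1.17 in PC-3. MKN74 stood 1.69 above PC-3 (3.23-fold, adjusted p = 9.00e-10) and 0.60 above HBC4 (1.52-fold, adjusted p = 1.17e-05), and HBC4 stood 1.09 above PC-3 (2.12-fold, adjusted p = 5.93e-08). KRT8 and KRT18 moved together over the 12 arrays (Pearson r 0.991, a description over arrays that share 3 lines). Both are read by x_at probe sets, whose probes can bind transcripts of related sequences, including keratin pseudogenes, so their values are uncertain in that respect.

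KRT19, the smallest type I keratin and a partner of KRT8, broke that order. Its probe set 201650_at read 1.51, 1.51, 1.72 and 1.74 in MKN74, -3.16, -3.60, -3.23 and -2.79 in HBC4, and 0.091, 0.11, -0.091 and -0.15 in PC-3, treatments in the same order. HBC4 was thus the lowest line and no line overlapped another. MKN74 was 4.82 above HBC4 (28.2-fold, adjusted p = 1.20e-11) and 1.63 above PC-3 (3.10-fold, adjusted p = 1.14e-07), while HBC4 minus PC-3 was -3.18 (9.09-fold lower, adjusted p = 3.69e-10). The second KRT19 probe set, 228491_at, disagreed: its 12 values ran only between -0.44 and 0.42, and no line contrast passed (adjusted p 0.0591 to 0.905).

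**Figure D1:**
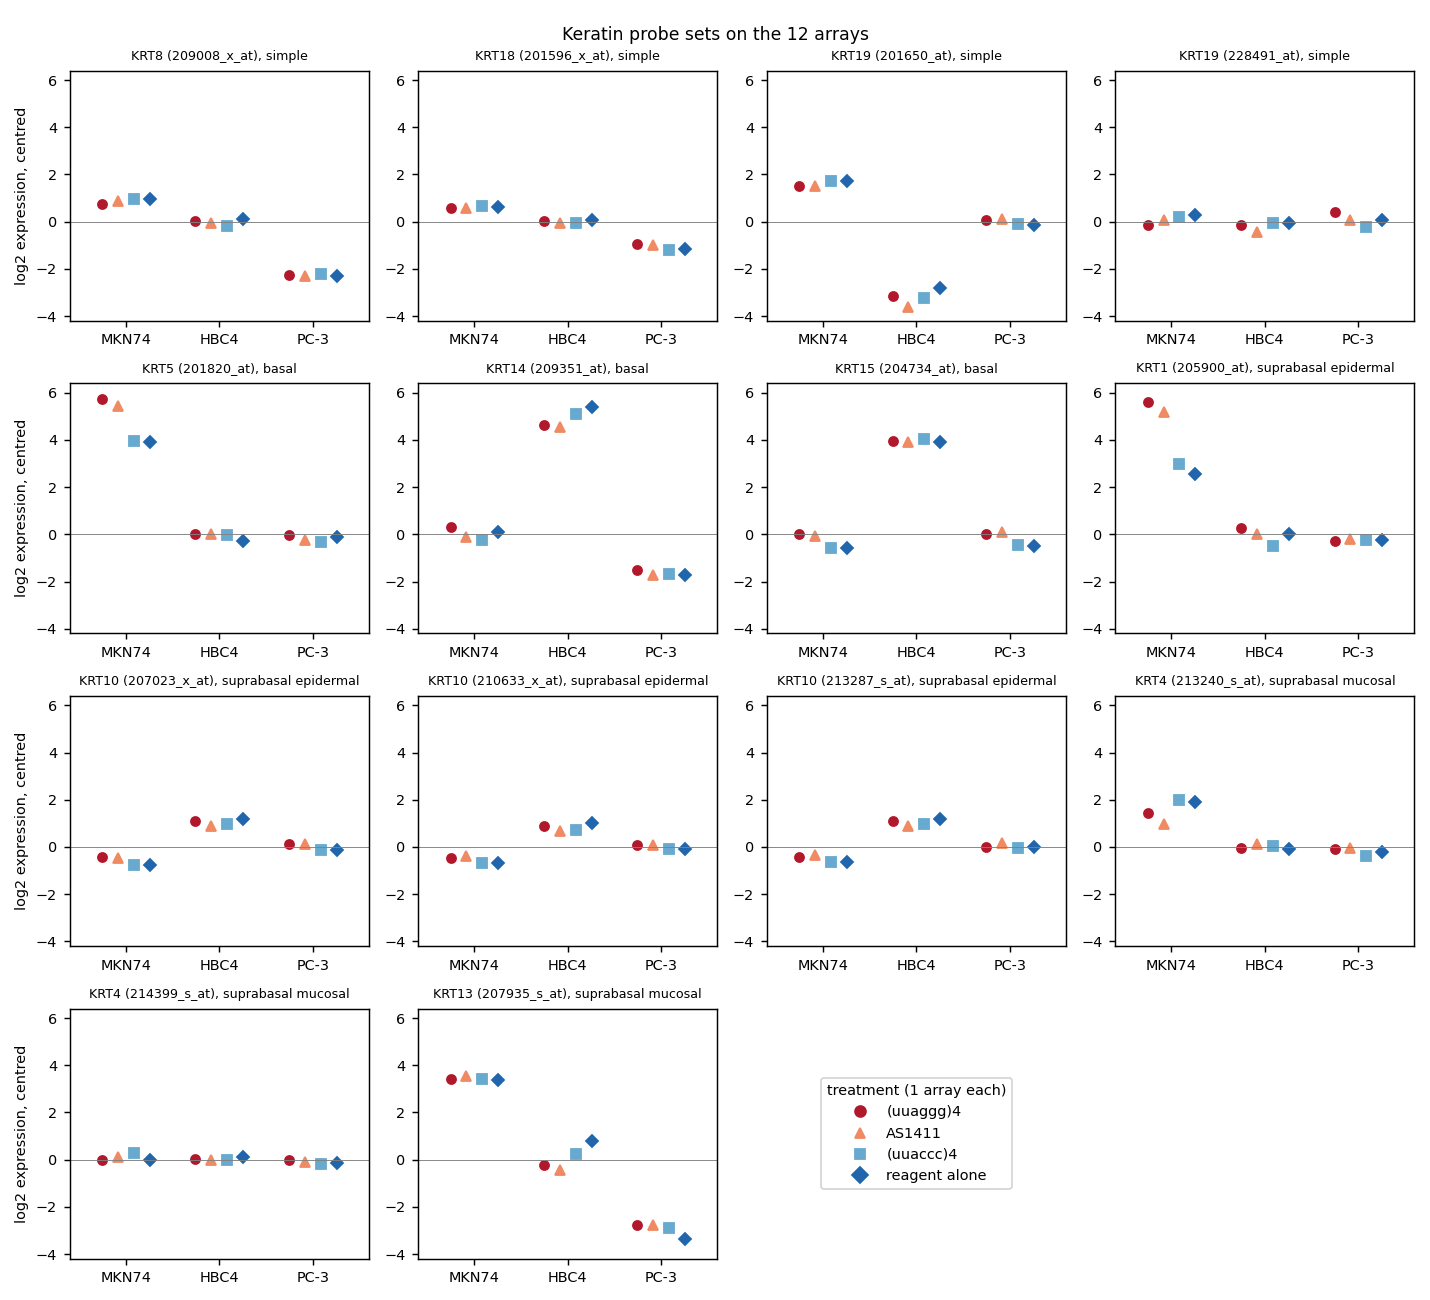
Centred log2 expression (y axis) of the 14 keratin probe sets in MKN74, HBC4 and PC-3 (x axis), 1 point per array, shaped by treatment. KRT8, KRT18 and KRT13 step down from MKN74 to HBC4 to PC-3, KRT14 and KRT15 stand high in HBC4, and KRT1 and KRT5 stand high in MKN74, with the G4 arrays on top.

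Basal keratins divided the lines by partner: the type II chain KRT5 was high in MKN74, and its type I partners KRT14 and KRT15 were high in HBC4. KRT5 read 5.74, 5.45, 3.97 and 3.89 in MKN74 with (uuaggg)4, AS1411, (uuaccc)4 and reagent alone. In HBC4 it read 0.013, 0.031, -0.013 and -0.27, and in PC-3 -0.019, -0.22, -0.31 and -0.11. MKN74 lay above the other lines on every array, and HBC4 and PC-3 overlapped. The MKN74 arrays helped to choose KRT5, so its differences from that line are a description without a test. With the control arrays alone, the difference was 4.07 against HBC4 (16.8-fold) and 4.14 against PC-3 (17.6-fold). With the G4 arrays included it was 4.82 (28.3-fold) and 4.93 (30.5-fold). HBC4 minus PC-3 was 0.11 with a 95% interval of -0.10 to 0.32 (adjusted p = 0.393).

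KRT14, which pairs with KRT5 in basal cells, read 0.30, -0.12, -0.25 and 0.12 in MKN74 with the 4 treatments in that order. It read 4.63, 4.56, 5.11 and 5.42 in HBC4 and -1.51, -1.71, -1.68 and -1.72 in PC-3. The order of lines was HBC4, MKN74, PC-3 with no overlap between them. MKN74 minus HBC4 was -4.91 for KRT14 (30.2-fold lower, adjusted p = 1.67e-11) and HBC4 minus PC-3 was 6.58 (95.9-fold, adjusted p = 1.51e-12). MKN74 exceeded PC-3 by 1.67 (3.18-fold, adjusted p = 1.61e-07). KRT15, a further type I keratin of basal cells, read 0.0005, -0.076, -0.60 and -0.58 in MKN74, 3.96, 3.89, 4.03 and 3.91 in HBC4, and -0.0005, 0.086, -0.44 and -0.49 in PC-3. HBC4 was 4.16 above PC-3 (17.9-fold, adjusted p = 6.97e-13) and MKN74 minus HBC4 was -4.26 (19.2-fold lower, adjusted p = 6.51e-13). MKN74 and PC-3 overlapped (difference -0.100, 95% interval -0.25 to 0.050, adjusted p = 0.244).

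Among the epidermal suprabasal keratins, KRT1 followed KRT5, and its partner KRT10 did not. KRT1 read 5.61, 5.20, 3.00 and 2.54 in MKN74, 0.26, 0.0028, -0.50 and -0.0028 in HBC4, and -0.27, -0.21, -0.24 and -0.24 in PC-3. All 4 MKN74 arrays stood above the other lines, a description again. With the control arrays alone, the difference was 3.02 against HBC4 (8.12-fold) and 3.01 against PC-3 (8.07-fold), and with the G4 arrays included 4.15 (17.7-fold) and 4.33 (20.1-fold). HBC4 and PC-3 overlapped (0.18, 95% interval -0.12 to 0.49, adjusted p = 0.312). KRT1 and KRT5 moved together over the 12 arrays (Pearson r 0.983, a description that includes the MKN74 arrays behind the choice of genes). KRT10 was highest in HBC4 and lowest in MKN74 on all 3 of its probe sets. On 207023_x_at it read -0.44, -0.45, -0.78 and -0.78 in MKN74, 1.09, 0.87, 0.97 and 1.17 in HBC4, and 0.12, 0.11, -0.12 and -0.11 in PC-3. Over the 3 probe sets, MKN74 minus HBC4 ran from -1.64 to -1.38 and MKN74 minus PC-3 from -0.61 to -0.53, and all 6 of these differences passed (adjusted p at most 0.000168).

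The mucosal keratins KRT4 and KRT13 were highest in MKN74. KRT13, the type I chain of mucosal suprabasal cells, spanned the lines widely: 3.42, 3.56, 3.40 and 3.37 in MKN74, -0.24, -0.45, 0.24 and 0.77 in HBC4, and -2.78, -2.77, -2.89 and -3.36 in PC-3. The lines did not overlap. MKN74 was 3.36 above HBC4 (10.2-fold, adjusted p = 8.59e-10) and 6.39 above PC-3 (83.8-fold, adjusted p = 2.77e-12), and HBC4 was 3.03 above PC-3 (8.19-fold, adjusted p = 1.89e-09; 3.64 and 12.4-fold with the control arrays alone). KRT4, its type II partner, read 1.42, 0.96, 1.99 and 1.91 in MKN74 on 213240_s_at, against -0.39 to 0.14 over the 8 arrays of HBC4 and PC-3. MKN74 exceeded HBC4 by 1.57 (2.96-fold, adjusted p = 1.16e-07) and PC-3 by 1.76 (3.39-fold, adjusted p = 2.94e-08). The second KRT4 probe set, 214399_s_at, disagreed, with values between -0.17 and 0.26 on all 12 arrays and no line contrast past the threshold (adjusted p 0.0611 to 0.612).

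Counted together, 12 of 14 probe sets passed in MKN74 minus HBC4 (7 higher, 5 lower), where 45.2% of all probe sets passed (24.7% higher, 20.5% lower). In MKN74 minus PC-3, 11 of 14 passed (8 higher, 3 lower) against 54.4% of all probe sets (31.1% higher, 23.3% lower), and in HBC4 minus PC-3, 9 of 14 (8 higher, 1 lower) against 49.1% (26.0% higher, 23.1% lower). The median difference over the 14 was 0.44, 1.65 and 0.92 in these contrasts, against 0.021, 0.078 and 0.057 over all probe sets. Within MKN74 minus HBC4, the simple keratins had 3 of 4 higher and none lower. The stratified ones had 4 of 10 higher and 5 lower. Those 5 were KRT14, KRT15 and the 3 KRT10 probe sets, and those 4 were of KRT1, KRT4, KRT5 and KRT13. In MKN74 minus PC-3, the simple keratins had 3 higher and 0 lower, and the stratified ones 5 and 3. For HBC4 minus PC-3 these counts were 2 and 1, and 6 and 0. The shares over all members, 85.7%, 78.6% and 64.3%, lie above the background. However, the 14 probe sets hold several that share a gene, and the distance from the background was not tested. Line means include the G4 arrays that led to the choice of genes, and KRT1 and KRT5 are among those counted higher in both MKN74 contrasts. For KRT1 and KRT5 a pass in these contrasts is a description and no test, and the 85.7% and 78.6% include them. With only the 2 control arrays of each line, 12, 11 and 9 of the 14 passed in the same order of contrasts. The folds of KRT1 and KRT5 between MKN74 and the other lines, and of KRT13 in HBC4 minus PC-3, then moved by over 1.5 times, as given above.

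**Figure D2:**
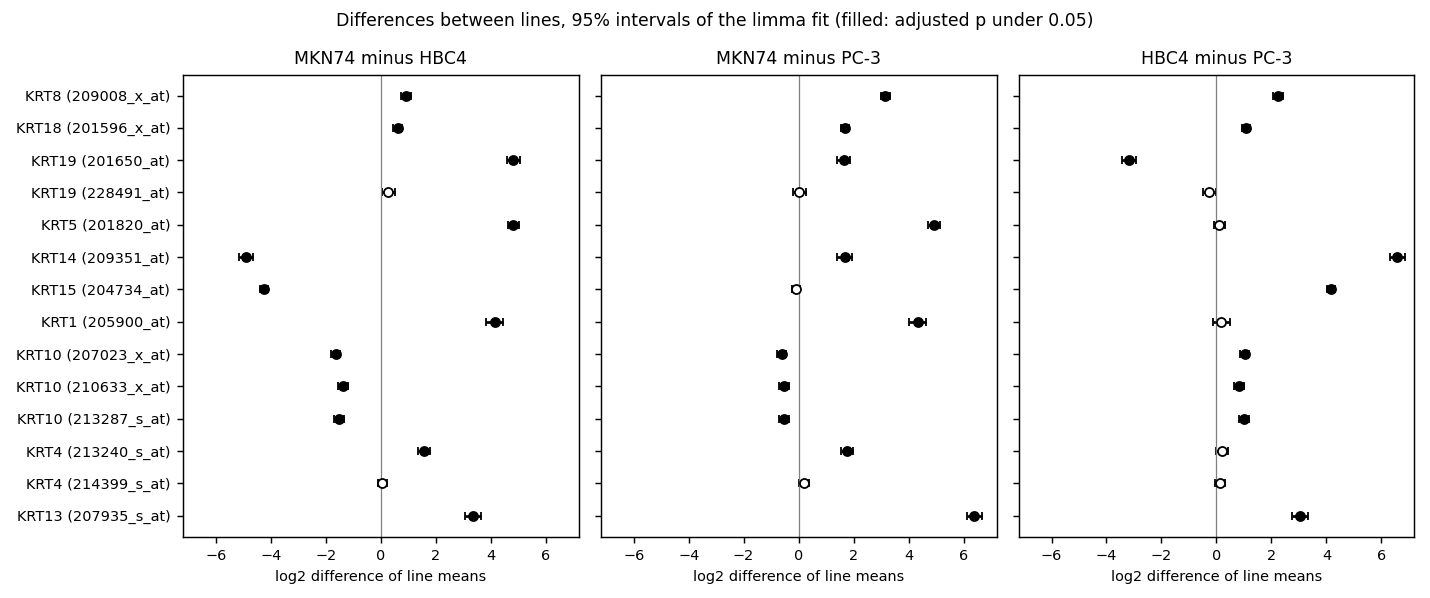
Differences of line means in log2 units (x axis) with 95% intervals for the 14 keratin probe sets (y axis) in MKN74 minus HBC4, MKN74 minus PC-3 and HBC4 minus PC-3, 4 arrays per line, G4 arrays included. KRT14 and KRT15 lie far left of 0 in MKN74 minus HBC4, where KRT1, KRT5, KRT13 and the first KRT19 probe set lie far right. For KRT1 and KRT5 the intervals in the MKN74 contrasts are descriptions, since MKN74 arrays led to their choice.

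Set pair by pair, the type I and type II partners were matched across lines for KRT8 with KRT18 and roughly for KRT4 with KRT13, and not for KRT8 with KRT19, KRT5 with KRT14 or KRT15, or KRT1 with KRT10. Pearson r over the 12 arrays was 0.991 for KRT8 with KRT18, 0.865 for KRT4 on 213240_s_at with KRT13, 0.105 for KRT8 with KRT19 on 201650_at, -0.25 for KRT5 with KRT14, -0.47 for KRT5 with KRT15, and -0.64 for KRT1 with KRT10 on 207023_x_at. Chains that are not partners reached r as high, 0.974 for KRT18 with KRT13, both type I, and 0.957 for KRT8 with KRT13. A high r is thus not particular to partners. KRT4 on 214399_s_at gave 0.715 with KRT13. In HBC4 minus PC-3, KRT4 on 213240_s_at differed by 0.19 (adjusted p = 0.149, limma), and KRT13 by 3.03. All arrays of a line share that line, so these are descriptions of 3 lines rather than of 12 independent points.

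**Figure D3:**
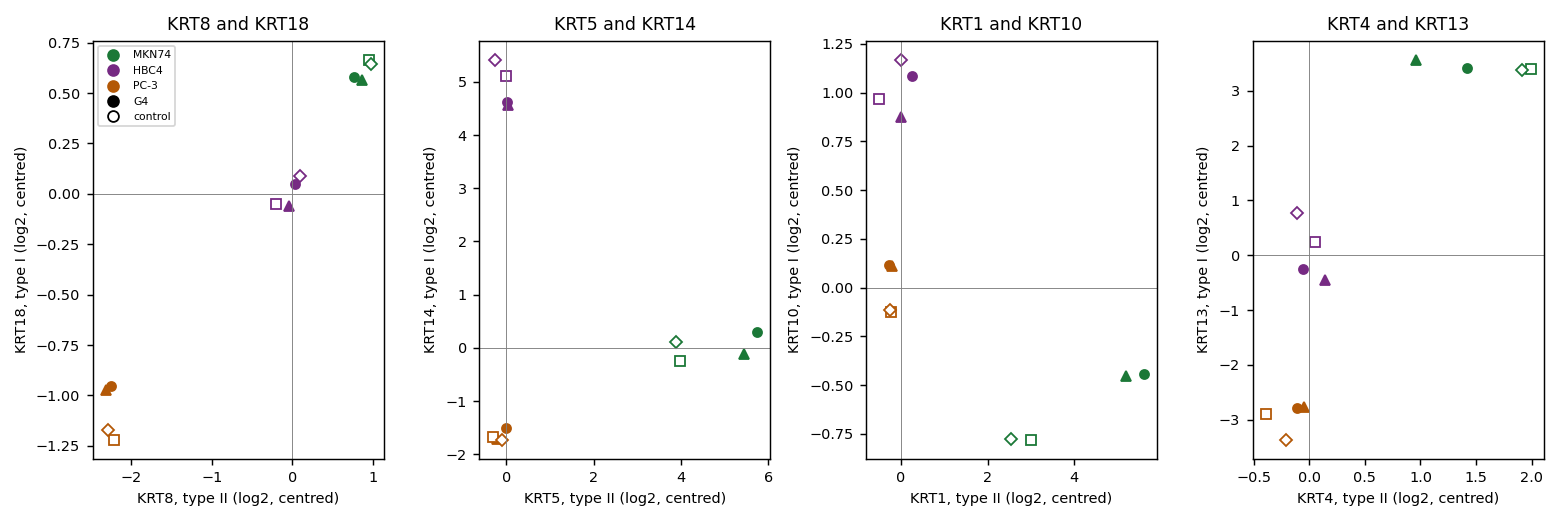
Type II keratins (x axis) against their type I partners (y axis), both centred log2 expression, 1 point per array, coloured by line, filled for G4 arrays (circle (uuaggg)4, triangle AS1411) and open for controls (square (uuaccc)4, diamond reagent alone). KRT8 and KRT18 rise along a diagonal, whereas KRT5 is high in MKN74 and KRT14 in HBC4.

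In MKN74, the G4 oligonucleotides went with higher KRT1 and KRT5 and lower KRT4. These are the values that chose the genes and carry no test. The mean of the G4 arrays minus the mean of the control arrays was 2.64 for KRT1 (6.21-fold), the highest of all 54613 probe sets, and 1.67 for KRT5 (3.17-fold), the 5th highest. For KRT1 the RNA pair, (uuaggg)4 minus (uuaccc)4, gave 2.61 and AS1411 minus reagent alone gave 2.66. For KRT5 the same pairs gave 1.78 and 1.55. Both G4 oligonucleotides stood above their counterparts. KRT15 differed by 0.55 (1.46-fold, 287th highest) and the 3 KRT10 probe sets by 0.24 to 0.33. KRT4 on 213240_s_at gave -0.76 (1.69-fold lower, 313th from the lowest), and the other KRT4 probe set gave -0.079. Simple keratins differed little and downwards, by -0.15 for KRT8, -0.084 for KRT18, and -0.22 and -0.29 for the KRT19 probe sets. KRT13 gave 0.10, and KRT14 gave 0.16 with overlapping classes. Both G4 arrays lay beyond both control arrays for 12 of the 14 probe sets (7 higher, 5 lower), against 42.0% of all probe sets (21.7% higher, 20.2% lower), and 0.831% of all probe sets passed the fit in this contrast.

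The arrays of PC-3 and HBC4 were not used in choosing the genes. KRT1 and KRT5 did not pass there. KRT1 minus its controls was 1.62e-05 in PC-3 (95% interval -0.43 to 0.43) and 0.38 in HBC4 (-0.050 to 0.82), with adjusted p of 1.00 and 0.395. KRT5 gave 0.091 in PC-3 (-0.21 to 0.39, adjusted p = 0.839) and 0.16 in HBC4 (-0.14 to 0.46, adjusted p = 0.636). The difference from MKN74 was not tested, because MKN74 chose the genes. In both lines the probe sets sat near 0 on the centred scale, where a transcript at background cannot be told from a low one.

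In PC-3, 1 of 14 keratin probe sets passed, against 1.21% of all probe sets: KRT15 rose by 0.51 (SE 0.096, 1.42-fold, adjusted p = 0.0290). Its G4 arrays read -0.0005 and 0.086, and its control arrays -0.44 and -0.49, with no overlap. The call was lost when any 1 of the 4 PC-3 arrays was left out (difference 0.47 to 0.55). KRT15 averaged -0.21 in PC-3 and -0.31 in MKN74, against 3.95 in HBC4. At such low values a transcript at background cannot be told from a low one. KRT18 was 0.23 higher with G4 oligonucleotides (95% interval 0.024 to 0.44, adjusted p = 0.321) and KRT13 0.35 higher (-0.050 to 0.75, adjusted p = 0.449), and neither passed. Both G4 arrays lay above both control arrays for 9 of 14 probe sets and below for none, against 25.0% and 21.8% of all probe sets (46.7% in either direction).

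In HBC4, 1 of 14 passed, against 1.55% of all probe sets: KRT13 fell by 0.85 log2 units (SE 0.18, 1.81-fold, adjusted p = 0.0459). Its G4 arrays read -0.24 and -0.45 and its control arrays 0.24 and 0.77. The call was lost in 9 of the 12 fits that left out 1 array, and the difference was -0.59 without the reagent-alone array of HBC4. KRT14 gave -0.67 (95% interval -1.04 to -0.30, adjusted p = 0.0826), its G4 arrays at 4.63 and 4.56 and its control arrays at 5.11 and 5.42, and did not pass. KRT15, its fellow type I chain, gave -0.046 (-0.26 to 0.17, adjusted p = 0.878). Both G4 arrays lay beyond both control arrays for 5 of 14 probe sets (2 higher, 3 lower), against 45.0% of all probe sets (25.1% higher, 19.9% lower).

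**Figure D4:**
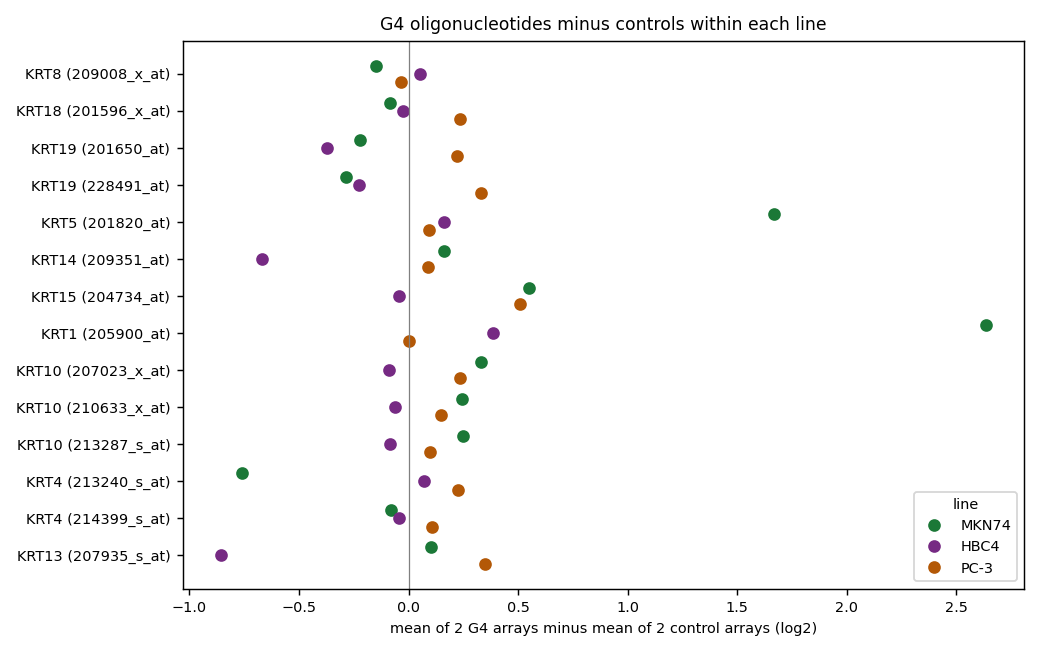
Mean of 2 G4 arrays minus mean of 2 control arrays in log2 units (x axis) for each keratin probe set (y axis) in MKN74, HBC4 and PC-3. KRT1 at 2.64 and KRT5 at 1.67 in MKN74 stand far to the right, and KRT13 in HBC4 lies lowest at -0.85.

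Over PC-3 and HBC4 together, none of the 14 probe sets passed in limma, against 2.99% of all probe sets, and 2 had an unadjusted p under 0.05, as did 17.9% of all. The fitted difference of G4 effects, HBC4 minus PC-3, an addition made after the values were seen, passed for none of the 14 either, against 0.137% of all, with 5 at an unadjusted p under 0.05, as had 10.4% of all. KRT13 had the largest such difference, -1.20 (95% interval -1.77 to -0.64, adjusted p = 0.127).

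The 2 treatments of a class were also compared, in a model with the line as a block. (uuaccc)4 minus reagent alone and AS1411 minus (uuaggg)4 gave 0 of 14 keratin probe sets past the threshold, as for all probe sets (0.0% in both), and 0 keratin probe sets at an unadjusted p under 0.05. For KRT1, AS1411 minus (uuaggg)4 was -0.20 (95% interval -1.31 to 0.90) and (uuaccc)4 minus reagent alone -0.011 (-1.12 to 1.09). For KRT5 the values were -0.16 (-0.86 to 0.54) and 0.042 (-0.66 to 0.74). In this model, differences in response between lines count as spread, and the intervals do not show that the 2 treatments of a class act alike.

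Keratins outside the 10 members also differed by line. KRT7, a simple-epithelial type II keratin, averaged -4.09 ± 0.49 in MKN74, 3.23 ± 0.12 in HBC4 and -0.0048 ± 0.052 in PC-3 (SD, n = 4 arrays each). KRT20, an intestinal type I keratin, averaged -0.30 ± 0.21, -0.040 ± 0.31 and 3.54 ± 0.30 in the same lines, highest in PC-3. KRT23, an inducible type I keratin, averaged 1.92 ± 0.25, -0.056 ± 0.37 and -8.31 ± 0.62 in the same lines. With G4 oligonucleotides KRT23 fell by 1.03 in PC-3 (adjusted p = 0.00509) and gave -0.60 in HBC4 (adjusted p = 0.0747). PC-3 held the lowest KRT23 mean, and there a transcript at background cannot be told from a low one. KRT16, a type I keratin induced in wounded epidermis, fell by 0.73 in HBC4 (adjusted p = 0.0458), the line and direction of KRT13, and gave 0.30 in PC-3 (adjusted p = 0.457). Of the 5 measured non-member simple keratins, 1 fell in PC-3 and 0 passed in HBC4. Of the 10 measured stratified ones, 0 passed in PC-3 and 1 fell in HBC4. Of all probe sets, 1.21% passed in PC-3 and 1.55% in HBC4. Over PC-3 and HBC4 together, KRT75 was 0.36 higher with G4 oligonucleotides (adjusted p = 0.0371) and KRT23 0.82 lower (adjusted p = 0.00152), where 2.99% of all probe sets passed. Fits under other settings, listed below, were read for members only. Calls of other genes, here and in the next paragraph, were not checked in them.

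ZNF750, a transcription factor of epidermal differentiation, averaged 7.12 ± 0.22 in MKN74, -0.014 ± 0.17 in HBC4 and -0.14 ± 0.10 in PC-3, with only MKN74 high, as for KRT5. OVOL1 was 2.67 higher in MKN74 than in HBC4 and 6.27 higher than in PC-3. Of 15 measured transcription factors of keratin expression, 11 were higher and 2 lower in MKN74 minus HBC4, 13 and 1 in MKN74 minus PC-3, and 11 and 2 in HBC4 minus PC-3. Of 14 desmosome and filament-linker genes, 9 were higher and 4 lower, 11 and 2, and 10 and 2 in the same contrasts. Of 6 measured hemidesmosome and basement membrane genes, 2 were higher and 4 lower, 1 and 3, and 4 and 2. Among 11 measured epithelial junction genes the counts were 4 and 6, 11 and 0, and 9 and 2. CDH1, 1 of them, was 1.24 lower in MKN74 than in HBC4 and 1.57 higher than in PC-3. The shares of all probe sets higher and lower were 24.7% and 20.5%, 31.1% and 23.3%, and 26.0% and 23.1%. Each gene was read on the probe set whose line means differed most, a choice that raises the counts, and the distance from these shares was not tested. VIM, the intermediate filament of mesenchymal cells, was lower in MKN74, with a log2 difference of -6.50 against HBC4 and -8.50 against PC-3. Of 14 other mesenchymal genes, 4 were higher and 5 lower in MKN74 minus HBC4, and 2 and 10 in MKN74 minus PC-3. EHF, an epithelial ETS factor, fell by 0.62 in PC-3 (adjusted p = 0.0377) and by 0.90 in HBC4 (adjusted p = 0.00376) with G4 oligonucleotides, and ELF3 by 0.57 in HBC4 (adjusted p = 0.0480).

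The probe sets most like KRT5 over the 12 arrays were those of BMP7 (Pearson r 0.993), PRODH, MFAP5, EDAR and FZD10 (0.990), and those most like KRT1 were another BMP7 probe set (0.985), SCLT1, SLC16A5, PRODH and MFAP5 (0.969). For KRT8 they were DUSP14 (0.999), SPNS2, ZNF518A, CTDSPL and MPZL2 (0.997), and for KRT18 GNAI3 (0.997), ZNF592, STRBP, FUT1 and TMEM125 (0.995 at the lowest). They were the highest of 11906 probe sets with an SD of at least 0.5. These are descriptions over arrays that share 3 lines.

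Markers of tissue of origin followed the labels in part. HOXB13, a prostate marker, averaged -0.20 in MKN74, -0.094 in HBC4 and 4.76 in PC-3, and ESR1, the oestrogen receptor, averaged 0.056 in MKN74, 3.24 in HBC4 and -0.16 in PC-3 on 1 of its 9 probe sets; 2 of the 9 shared its sign in MKN74 minus HBC4. CDX2 was higher in MKN74 (1.34 ± 0.12), and no other gene of the gastric list passed as higher there than in HBC4. The gastric trefoil genes TFF1 and TFF2 instead averaged -0.15 and -0.60 in MKN74 and 8.15 and 8.26 in PC-3. Of 5 measured prostate markers, 0 were higher and 2 lower in MKN74 minus PC-3, and 1 and 2 in HBC4 minus PC-3. Of 8 breast markers, 0 were higher and 5 lower in MKN74 minus HBC4, and 6 and 0 in HBC4 minus PC-3. Of 8 gastric markers, 1 was higher and 2 lower in MKN74 minus HBC4, and 2 and 3 in MKN74 minus PC-3. The shares of all probe sets in these contrasts are given above. Pearson r of the centred values over all probe sets was at least 0.856 for 2 arrays of the same line and at most -0.171 otherwise. Because each probe set was centred, a negative r between lines does not measure how alike their uncentred profiles are.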

How the data were processed

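Expression was measured in 3 cell lines under 4 treatments on 12 arrays, from 100 ng of total RNA per the labels' protocols. The authors deposited log2 values made with RMA, per the submitters' processing notes, which give no version. Every probe set had been centred: its median across arrays is 0 (within 5e-07). How this was done is not given in the sources used here, and base 2 was assumed. Names come from the platform annotation of 2016, and all 14 keratin probe sets matched RefSeq by gene identifier. The limma package (version 3.58.1, R 4.3.3; lmFit and eBayes) was run on all 54613 probe sets. One model held line by class, for line and G4 contrasts, and another held treatment with line as a block, each with 6 residual degrees of freedom. Benjamini-Hochberg adjusted p-values under 0.05 passed. Scripts were tested on simulated data. The number of arrays limits the precision. Members, lists and named genes were chosen with earlier results of these data known. The rule named all members. In each list it named up to 3 genes that set MKN74 furthest apart and up to 3 past the threshold for G4. It also always named TP63, VIM and CDH1, and TP63 was not among the measured genes of its list. Some of the named genes are printed, and KRT20 and the tissue markers were printed outside the rule. The HBC4 minus PC-3 difference of G4 effects and the promoter motifs were added after values and sequences were seen, ATAAAA after the KRT5 promoter had been read. Alternatives were quantile normalization, only probe sets that name 1 gene, only those with higher SD, a robust prior, control arrays only, an additive model, no line block, no MKN74, and each array left out.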

Additional observations from a re-analysis of the deposited data

Results flagged for a closer look

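For 5 of 14 keratin probe sets, the G4 arrays lay on opposite sides of the control arrays in at least 1 pair of lines, on every array, as they did for 16.7% of all 54613 probe sets. The values are differences of the G4 minus control difference between the lines, in log2 units. Differences that involve MKN74 were not tested, because that line chose the genes. For KRT18 the difference MKN74 minus PC-3 was -0.32, for KRT19 on 201650_at -0.44, for KRT19 on 228491_at -0.62, and for KRT4 on 213240_s_at -0.98. KRT13 gave 0.96 for MKN74 minus HBC4. For HBC4 minus PC-3, KRT13 gave -1.20 (adjusted p = 0.127, limma) and KRT19 on 228491_at -0.56 (adjusted p = 0.406), and neither passed.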

How the results depend on the processing

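The counts of keratin probe sets past the threshold in the line contrasts moved by at most 1 under the alternatives run. In PC-3 the count of G4 calls ranged from 0 to 1 when 1 array was left out, and was 0 whichever PC-3 array was left out, where KRT15 was lost. In HBC4 it also ranged from 0 to 1, and was 0 in 9 of 12 such fits, where KRT13 was lost. Over PC-3 and HBC4 together, quantile normalization gave 1 call, KRT15 at 0.35. Of 2138 recomputed tested differences of members, 106 changed sign, from 49 of the values. None of these passed in the fit reported, and the largest of them was 0.26. Among the values printed, KRT1 in HBC4 minus PC-3 was -0.0092 with control arrays only, KRT1 with G4 in PC-3 was -0.021 with quantile normalization, and KRT15 with G4 in HBC4 was 0.22 with it. With 1 array left out, KRT5 in PC-3 ranged from -0.010 to 0.19, KRT1 in PC-3 from -0.031 to 0.031, and KRT15 in HBC4 from -0.11 to 0.014. For (uuaccc)4 minus reagent alone, KRT5 ranged from -0.31 to 0.37 and KRT1 from -0.71 to 0.38, and for AS1411 minus (uuaggg)4, KRT5 from -0.46 to 0.23 and KRT1 from -0.68 to 0.41. In MKN74, the G4 difference ranged from 2.41 to 2.86 for KRT1, from 1.52 to 1.81 for KRT5, from -0.99 to -0.53 for KRT4 on 213240_s_at and from -0.049 to 0.37 for KRT14. The cause of these changes was not tested. Where 1 array was left out, a class of 2 became 1 array, assumed to vary like the others. No paired analysis was possible because the labels carry no replicate numbers, and the cell line served as the block instead.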
